A study of Mus musculus with 18 samples.

Results

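Naive CD4 T cells without the transcription factor STAT3 were set against wild type (WT) cells after 3 hours in medium alone. The samples were chosen by their labelled genotype and treatment, and they make up 6 of the 18 arrays of the series, 3 for each genotype. The STAT3-deficient group carries the genotype Cd4-Cre_C57BL6-STAT3<tm1Dlv> (STAT3KO), in which a Cre recombinase driven by Cd4 acts on a conditional Stat3 allele in T cells, so that other cells of the mice keep the gene. The WT group is labelled wild type, and whether those mice carried the Cre or the unrecombined allele is not stated in the labels. All cells are of strain C57BL/6J, come from spleen and lymph nodes, and were sorted as CD4+CD44-CD62L+CD25-. Age and sex of the animals are not given. The design text calls the arrays biological triplicates, and nothing says how many animals gave the cells of one array. The other 12 arrays hold the same genotypes with interleukin 6 (IL-6) or interleukin 27 (IL-27), each at 20 ng/ml for 3 hours.

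STAT3 waits in the cytoplasm until Janus kinases (JAKs) bound to a cytokine receptor phosphorylate it, and it then enters the nucleus as a dimer that binds a palindromic DNA motif. It is the main transducer of IL-6 and one of the transducers of IL-27, and among its known targets is Socs3, whose product shuts down the same receptors. In CD4 T cells it is known for its part in the Th17 and follicular helper programs. In medium no cytokine was added, so the comparison asks how the genotypes differed before stimulation.

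The arrays themselves differed by genotype. The hybridization controls, bacterial and phage transcripts added to every sample at hybridization, had geometric mean signals of 777, 864 and 1147 in the STAT3-deficient arrays, against 15182, 17062 and 13360.2 in the WT arrays. This is a log2 difference of -4.04, and the groups did not overlap (exact two-sided permutation test, p = 0.1, the smallest that 3 against 3 allows). The medians of all probe sets were 190.3, 176.9 and 172.2 in the STAT3-deficient arrays, against 104.4, 121.0 and 115.9 in the WT arrays, although all arrays carry the same trimmed mean. The 3′ over 5′ log2 ratio, which rises as RNA degrades or labelling shortens, was 0.68 ± 0.04 for Actb in STAT3-deficient arrays and 0.51 ± 0.04 in WT arrays (SD, n = 3 each). For Gapdh it was -0.37 ± 0.09 in STAT3-deficient arrays and -0.85 ± 0.04 in WT arrays (SD, n = 3 each; exact permutation p = 0.1 for both ratios). The same split of hybridization controls held over the whole series, with 9.55 to 10.16 on the log2 scale in the 9 STAT3-deficient arrays and 13.68 to 14.06 in the 9 WT arrays. Genotype and the handling of the arrays therefore cannot be told apart in any result below.

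Stat3, the gene that was targeted, was read by 4 probe sets, which did not all move one way. The most strongly expressed one, 1460700_at, had signals of 1122.5, 1265 and 1109.7 in STAT3-deficient cells, against 3101, 2632 and 2361 in WT cells (log2 change -1.11 ± 0.12, adjusted p = 1.15e-05, limma). All 3 STAT3-deficient arrays lay under all WT arrays, at a signal that was still above 1100. A second probe set, 1426587_a_at, also fell, with 1021, 1074 and 1108.5 in STAT3-deficient cells, against 2384.5, 2207 and 1833 in WT cells (-0.92 ± 0.13, adjusted p = 9.76e-05). The third, 1424272_at, was higher, with 569, 382 and 508 in STAT3-deficient cells, against 209.7, 224 and 203 in WT cells (0.80 ± 0.27, adjusted p = 0.0345). Its groups did not overlap either, but the call is lost with median centring (adjusted p = 0.0847) and without the filter on dim probe sets (adjusted p = 0.0547). The fourth, 1459961_a_at, had 261, 377 and 207 in STAT3-deficient cells, against 155, 152 and 235 in WT cells, and its change of 0.12 ± 0.20, adjusted p = 0.704 did not pass the test. The positions of these probe sets relative to the deletion were not available, so the label is checked only in that the 2 brightest probe sets fell.

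Across the genome the genotypes differed widely. Of 11971 genes tested, 3190 passed an adjusted p of 0.05 (26.6%), 1647 of them higher (13.8%) and 1543 lower (12.9%) in STAT3-deficient cells. Most changes were small: 369 of the higher and 120 of the lower genes changed at least 2-fold, and 31 and 4 changed at least 4-fold. The 3 arrays of one genotype lay wholly beyond those of the other for 4990 genes (41.7%), 3048 of them called. The count fell to 2028 without WT array 1, 2060 without WT array 2 and 2077 without STAT3-deficient array 1. With the hybridization controls as a covariate limma called 0 genes, with 1351 at an unadjusted p under 0.05, since that covariate nearly equals genotype (r = -0.998). With the B cell and myeloid markers as covariate, which also follow genotype closely (r = 0.957), limma called 395. On the first principal component, with 33.1% of the variance, the genotypes stood apart over all 18 arrays. Changes are given as log2 values on the quantile-normalised log2(signal + 32) scale, STAT3-deficient minus WT, each with its standard error (SE) from limma for 3 arrays a group, while signals are in deposited units. The quantile step matters for their sign: the median change of all genes was 0.03 after it, 0.14 on the deposited scale and -0.40 when each array was centred on its median, and the share of calls that were higher was 51.6%, 60.4% and 11.5%. Values under the other scalings are given for genes named by rule and for list medians whose direction they turned. Counts of called list members are to be read beside the 13.8% higher and 12.9% lower over all genes. No list was tested against these shares.

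**Figure D1:**
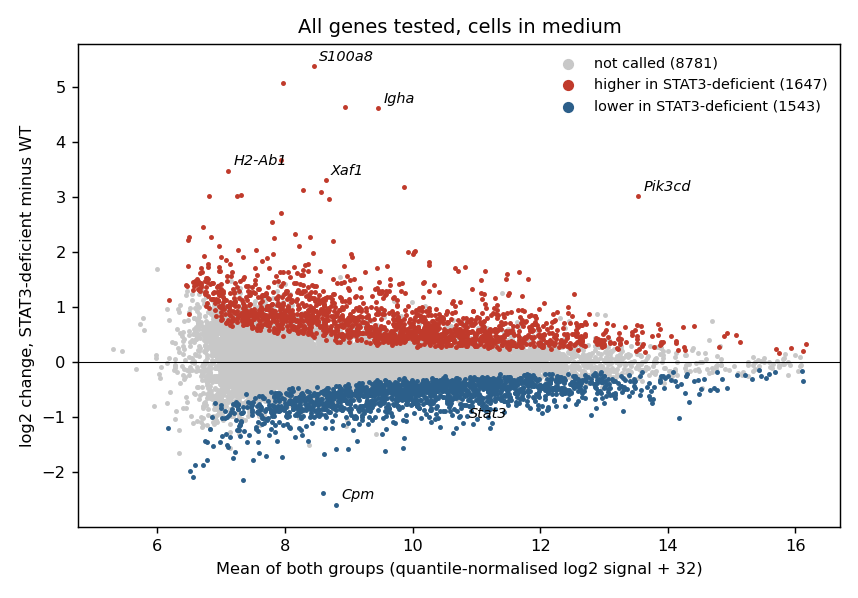
Log2 change in medium (STAT3-deficient minus WT, vertical axis) against the mean of both groups (quantile-normalised log2 of signal + 32, horizontal axis) for the 11971 genes tested, with called genes coloured. The largest increases, up to 5.39 for S100a8, exceed the largest decrease, -2.60 for Cpm.

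The largest increases were in genes of neutrophils and in immunoglobulin genes. S100a8, 1 of the 2 calprotectin subunits that fill the neutrophil cytoplasm, had signals of 2460.4, 3187 and 1175 in STAT3-deficient cells, against 28.3, 11.4 and 12.2 in WT cells (log2 change 5.39 ± 0.38, adjusted p = 1.29e-07). Its partner S100a9 had 1479, 2626 and 682 in STAT3-deficient cells, against 11.6, 7.10 and 6.90 in WT cells (5.08 ± 0.56, adjusted p = 1.79e-05). In WT arrays both sat near the bottom of the signal range, and the third STAT3-deficient array was the lowest of its group for both. Camp, the cathelicidin antimicrobial peptide, had 527, 799 and 237 in STAT3-deficient cells, against 18.6, 12.6 and 22.2 in WT cells (3.04 ± 0.38, adjusted p = 5.04e-05). Ngp, a neutrophil granule protein, had 1231, 1768 and 606 in STAT3-deficient cells, against 70.6, 105 and 112 in WT cells (2.96 ± 0.43, adjusted p = 0.000189). Chil3, a chitinase-like protein of myeloid cells, had 384, 561 and 165.5 in STAT3-deficient cells, against 3.10, 9.60 and 4.70 in WT cells (3.02 ± 0.46, adjusted p = 0.000258). The order within the STAT3-deficient group was the same for these 5 genes, with array 2 highest and array 3 lowest. Over a list of 11 measured neutrophil granule genes, chosen after the values were seen, 7 were higher and none lower, with a median change of 2.22. The filter kept probe sets above their array median on at least 3 of the 18 arrays. Genes near the floor in WT arrays could pass it through STAT3-deficient arrays alone. The counts and medians of this list and of the immunoglobulin, class II, B cell and myeloid lists below are therefore partly fixed by the filter.

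Immunoglobulin genes followed the same array order only in part. Igha, the heavy chain constant region of IgA, had 5140.4, 4419 and 1405.5 in STAT3-deficient cells, against 96.6, 41.4 and 175 in WT cells (4.62 ± 0.68, adjusted p = 0.000196), and all 3 of its probe sets rose. Igkv8-30, a kappa light chain variable gene, had 2876, 3032 and 1318 in STAT3-deficient cells, against 59.3, 74.3 and 29.3 in WT cells (4.64 ± 0.39, adjusted p = 9.3e-07). The lambda gene Iglv1 changed by 3.02 and Jchain, which links IgA and IgM into polymers, by 3.10. Light chain variable genes are near-identical to one another, so their probe sets may read several genes. Ighm, the heavy chain of IgM, had 4509.7, 7026 and 5197 in STAT3-deficient cells, against 5206, 5625 and 5548 in WT cells, and its change of 0.24 ± 0.17 did not pass (adjusted p = 0.321). Of 12 measured immunoglobulin and plasma cell genes, a list also chosen after the values were seen, 4 were higher and 1 lower. The lower one was Derl3 (-0.87 ± 0.23, limma adjusted p = 0.0115), whose deposited signals overlapped. Other members that did not pass were Xbp1 (0.026), Sdc1 (-0.085), Prdm1 (-0.033), Irf4 (0.14), Ighg3 (1.30) and Mzb1 (0.62).

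MHC class II genes, which present antigen on B cells, dendritic cells and macrophages and are not expressed by resting mouse T cells, were higher as well. H2-Ab1 had 646, 626 and 249.6 in STAT3-deficient cells, against 4.50, 12 and 5.40 in WT cells (3.48 ± 0.39, adjusted p = 1.87e-05). H2-Aa, the partner chain, had 1395, 1049 and 489 in STAT3-deficient cells, against 77.2, 38.6 and 65.3 in WT cells (3.14 ± 0.48, adjusted p = 0.000251), and H2-Eb1 changed by 2.71. Here too STAT3-deficient array 3 was the lowest of its group, yet above every WT array. Of 8 measured class II genes, a list chosen after the values were seen, 4 were higher and none lower. The other genes among the 15 largest increases were Xaf1 and Pik3cd, taken up below, Ces5a, a carboxylesterase (3.18), and BC018473 (3.68).

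**Figure D2:**
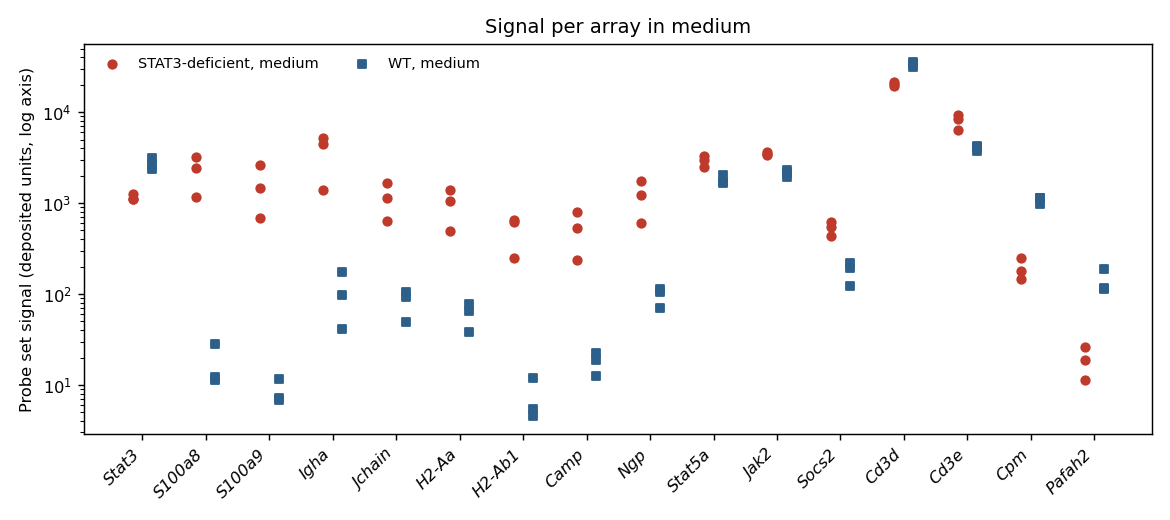
Deposited probe set signal (log axis) of 16 genes in each array in medium, STAT3-deficient arrays as circles on the left and WT arrays as squares on the right of each gene. S100a8 spans 1175 to 3187 in STAT3-deficient arrays and 11.4 to 28.3 in WT arrays, whereas Cd3d spans 19637 to 21385 in STAT3-deficient arrays and 31345 to 35870.1 in WT arrays.

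Marker lists of other cell types were read over all members that passed the filter. Members near the floor in WT arrays, such as Cd79b and H2-Ab1, could pass it through STAT3-deficient arrays alone, so these counts lean towards higher calls. Of 21 measured markers of B cells, 13 were higher and none lower, with a median change of 0.95, beside 0.03 over all genes; the median stayed above 0 on the deposited scale (1.34) and with median centring (0.80). Cd79b, a chain of the B cell receptor, had 385, 294 and 154 in STAT3-deficient cells, against 14, 9.70 and 6.00 in WT cells (2.46 ± 0.44, adjusted p = 0.0008). The summed signals of the list, which shares 6 genes with the class II list, were 14893, 16485 and 11734 in STAT3-deficient cells, against 8491, 8799 and 8915 in WT cells. Of 23 measured markers of myeloid and dendritic cells, 9 were higher and 3 lower, with a median of 0.35. Lyz1, a lysozyme of myeloid cells, had 219, 405 and 218 in STAT3-deficient cells, against 21, 29.9 and 2.40 in WT cells (2.28 ± 0.43, adjusted p = 0.00112), and Fcgr2b, the inhibitory Fc receptor of B cells and myeloid cells, had 2582, 2091 and 1398.5 in STAT3-deficient cells, against 419.8, 409.7 and 623 in WT cells (2.02 ± 0.27, adjusted p = 0.000105). The 3 lower members, named here after their values were seen, were Fcgr3 (-1.19), Cd68 (-0.74) and Cst3 (-0.41), and Csf1r, the defining receptor of macrophages, did not pass (-0.17 ± 0.27). Cd68 had deposited signals of 114, 121 and 102 in STAT3-deficient cells, against 124, 174 and 116 in WT cells. These overlapped, although the normalised values did not. The summed signals of the list were 21559, 24243 and 15526 in STAT3-deficient cells, against 15339, 15014 and 13329 in WT cells. Such sums are in deposited units, in which array medians differed by genotype, and bright members weigh most. The brightest myeloid member, Ctss, did not pass, with 9670, 10589 and 7533 in STAT3-deficient cells, against 10030, 9858.5 and 8727 in WT cells. In the B cell sum the brightest was Ighm, which did not pass either. In RNA from sorted cell populations, fewer cells of a type and less RNA per cell cannot be told apart. The part of such cells in the genotype differences was not tested.

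Of 11 measured markers of CD8 T and NK cells 3 were higher and 2 lower, beside 13.8% and 12.9% over all genes. Klrk1, the NKG2D receptor, had 317, 393 and 211.5 in STAT3-deficient cells, against 12.3, 97.3 and 73.5 in WT cells (1.56 ± 0.41, adjusted p = 0.0105), and Klrd1, the CD94 receptor chain, was lower (-0.80 ± 0.16, adjusted p = 0.00154). Of 6 measured markers of red blood cells and platelets none passed the test in limma, and their median change was 0.37. The 10 measured markers of CD4 T cells had strong signals on every array, with 2 higher, 2 lower and a median of -0.09, and their summed signals were 76796, 76119 and 83882 in STAT3-deficient cells, against 99156, 106862 and 100173 in WT cells. Cd3d, a chain of the CD3 complex, had 19637, 20181 and 21385 in STAT3-deficient cells, against 31345, 35870.1 and 34149 in WT cells (-0.47 ± 0.08, adjusted p = 0.000822). Cd3e, the chain beside it in the same complex, had 8459.5, 6402 and 9282 in STAT3-deficient cells, against 4153, 4235 and 3698 in WT cells (1.24 ± 0.13, adjusted p = 1.73e-05). Each chain was read by 1 kept probe set, and these moved in opposite directions without overlap between genotypes. Cd2, an adhesion receptor of T cells, fell (-0.52), and Lat, the adaptor downstream of the T cell receptor, rose by 0.37 but came to -0.47 with median centring. Cd4 itself had 2688, 2232.5 and 2584 in STAT3-deficient cells, against 2519.6, 2821 and 1915 in WT cells, with a change of 0.22 ± 0.18, adjusted p = 0.364 that did not pass and came to -0.48 with median centring, while a second Cd4 probe set was lower (-0.98 ± 0.17, adjusted p = 0.000733).

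Such disagreement between probe sets of one gene was common in the comparison. Of 877 genes with at least 2 called probe sets, 305 (34.8%) had probe sets called in opposite directions. Among probe sets that also changed at least 2-fold, 8 of 55 genes (14.5%) did so. The same genotype comparison gave 13.1% with IL-6 and 29.2% with IL-27, whereas IL-27 against IL-6 within WT cells gave 0 of 104 genes. On the deposited scale the shares were 26.9%, 12.9% and 20.1% for the genotype comparisons in medium, with IL-6 and with IL-27, and again 0 of 109 genes within WT. The differences between these shares were not tested. Pik3cd, the catalytic delta subunit of PI3-kinase in leukocytes, is one case. Its probe set with the highest signal had 29413.5, 29584.5 and 31612 in STAT3-deficient cells, against 3425, 4189 and 5508 in WT cells (3.02 ± 0.15, adjusted p = 2.44e-10), yet 1422991_at had 179.9, 165 and 174 in STAT3-deficient cells, against 795, 321 and 445 in WT cells (-1.68 ± 0.27, adjusted p = 0.000374). A further probe set, 1422992_s_at, was also lower (-1.11 ± 0.20, adjusted p = 0.00077), so no direction can be given for the gene. Xaf1, an interferon-induced gene linked to cell death, had 1247, 1095.5 and 1260.0 in STAT3-deficient cells, against 95.3, 74.4 and 62.5 in WT cells for one probe set (3.31 ± 0.15, adjusted p = 9.45e-11) and 193, 125 and 168 in STAT3-deficient cells, against 581, 582.5 and 543 in WT cells for the other (-1.98 ± 0.18, adjusted p = 1.79e-06). Of the 160 genes named by rule, 82 had at least 2 probe sets, and 17 had one called against the direction given here, among them Hsp90aa1, Stat5b, Cd47 and Psme3. Others had probe sets that were not called: 3 of 5 for Arnt, 2 of 3 for Ddx58, Canx, Slamf6 and Bod1l, and 1 of 2 for Ifngr2 and Mcm2.

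**Figure D3:**
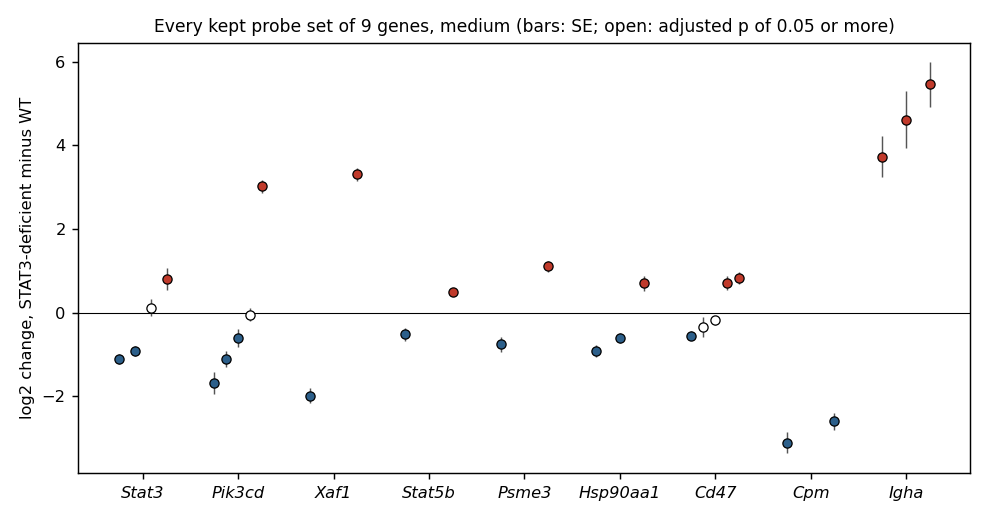
Log2 change in medium (STAT3-deficient minus WT, vertical axis) of every kept probe set of 9 genes, bars giving the SE of the limma model, filled points called higher or lower and open points not called. Pik3cd spans 3.02 to -1.68 and Xaf1 3.31 to -1.98, while all 3 probe sets of Igha lie above 0 and both of Cpm below.

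Among lower genes, the largest change was in Cpm, a membrane carboxypeptidase, with 148, 180.3 and 252 in STAT3-deficient cells, against 1133, 1138 and 983 in WT cells (-2.60 ± 0.20, adjusted p = 2.29e-07). Both of its probe sets fell, and the groups were far apart. Gm15708 had 210.0, 113 and 232 in STAT3-deficient cells, against 921, 866.5 and 799 in WT cells (-2.38 ± 0.22, adjusted p = 2.3e-06). Pafah2, a hydrolase of platelet-activating factor and oxidised phospholipids, had 11.4, 25.9 and 18.8 in STAT3-deficient cells, against 112.5, 187 and 118 in WT cells (-2.09 ± 0.42, adjusted p = 0.0018). Several of the 15 largest decreases lay near the bottom of the signal range in STAT3-deficient arrays, where the added constant shrinks changes. They included Sytl1, a vesicle-trafficking protein (-2.15), Xylt2, a xylosyltransferase of proteoglycan synthesis (-1.98), and Sntb2, a syntrophin (-1.88). Plcb2, a phospholipase C downstream of G protein-coupled receptors, fell by 1.66, Arhgap39, a GTPase-activating protein, by 1.67, and Sil1, an exchange factor for the chaperone BiP, by 1.63 on the log2 scale. The rest were 1110020A21Rik (-1.88), 5830468F06Rik (-1.79), Gm5617 (-1.78), Nat8f1 (-1.75), Fam221a (-1.73) and Kptn (-1.70), an actin-associated protein.

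Genes reported as STAT3 targets were called about as often as all genes. Of 34 measured, 4 were higher and 5 lower, Stat3 included, which is 26.5%, against 26.6% of all genes tested, and their median change was 0.052, or -0.48 with median centring. Il6ra, the ligand-binding IL-6 receptor chain, had 1803, 1679 and 1836 in STAT3-deficient cells, against 2906, 3565 and 3031 in WT cells (-0.69 ± 0.17, adjusted p = 0.00702). Icos, a costimulatory receptor, fell (-0.67 ± 0.14, adjusted p = 0.00293). Socs3 had 476, 434 and 439.9 in STAT3-deficient cells, against 518.5, 460.2 and 584 in WT cells, with a change of -0.35 ± 0.15, adjusted p = 0.0908, which did not pass, and its signals overlapped. A second Socs3 probe set was called lower (-0.59 ± 0.20, adjusted p = 0.0358) and the remaining one was not called (-0.51 ± 0.31, adjusted p = 0.248). The gene passed as the mean of its probe sets (-0.48, adjusted p = 0.0266) and with median centring (-0.73, adjusted p = 0.00101). Bcl3, a nuclear IκB protein, had 976, 710.3 and 772 in STAT3-deficient cells, against 751.5, 443 and 467 in WT cells (0.52 ± 0.15, adjusted p = 0.0183), and its groups overlapped. Bcl2l1, the survival factor BCL-XL, was higher, with 863, 726 and 801.5 in STAT3-deficient cells, against 334, 338.5 and 399.5 in WT cells (1.00 ± 0.24, adjusted p = 0.00611). Il17a, the Th17 cytokine, changed by 0.90 ± 0.26, adjusted p = 0.0181 at signals of 346, 341 and 290.1 in STAT3-deficient cells, against 104.5, 85.8 and 147 in WT cells. These WT signals lay near the WT array medians of 104.4 to 121, and the medians of STAT3-deficient arrays were higher, at 172.2 to 190.3. Of 20 alternative settings, 3 lost the Il17a call and 1 turned its sign. Cd274, which encodes PD-L1, had 342, 457 and 433 in STAT3-deficient cells, against 332, 246 and 210.0 in WT cells, and its change of 0.32 ± 0.17, adjusted p = 0.179 did not pass, though it did on the deposited scale (0.60, adjusted p = 0.0123).

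The promoters of the targets were searched for a STAT-type motif. The letters TTCNNNGAA, a palindrome and therefore the same on both strands, were looked for in RefSeq promoter windows of GRCm38.p6, from 250 bases before to 50 after each start. Windows were found for 28 of the 34 measured targets and for 9682 of the 11971 genes tested. The motif lay in 4 of 32 windows of the targets (12.5%), in 7.55% of windows of genes called higher, in 6.71% of those called lower, in 6.97% of those of all genes tested and in 8.3% of all windows. The differences between these shares were not tested. Windows, not genes, were counted, and Bcl6 held the motif in windows at different starts. The match is a description of letters, not of binding. One stretch each of the 3 target or adhesion genes named here is shown around the motif, in capitals, since the probe sets that stood for Socs3 and Bcl6 did not pass in medium while that of Icam1 was called higher.
Socs3, chr11:117969476-117969555, minus strand: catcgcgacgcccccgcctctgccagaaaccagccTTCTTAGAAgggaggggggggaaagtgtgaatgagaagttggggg
Bcl6, chr16:23988926-23989005, minus strand: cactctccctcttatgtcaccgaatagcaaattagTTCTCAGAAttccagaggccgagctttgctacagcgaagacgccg
Icam1, chr9:21015863-21015939, plus strand: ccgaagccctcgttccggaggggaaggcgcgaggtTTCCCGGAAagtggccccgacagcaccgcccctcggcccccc

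Components of the JAK-STAT pathway leaned upward after quantile normalisation. Of 28 measured genes 9 were higher and 1 lower, with a median of 0.14, but with median centring 1 was higher and 14 lower, and the median of -0.40 was that of all genes. Jak2, a kinase of cytokine receptors, had 3602, 3493 and 3381 in STAT3-deficient cells, against 1929, 2161.5 and 2304 in WT cells (0.89 ± 0.10, adjusted p = 1.75e-05). Stat5a, the neighbour of Stat3 on chromosome 11 and the transducer of IL-2 and IL-7 signals, had 2523, 3281 and 3014 in STAT3-deficient cells, against 1726, 1653 and 2033 in WT cells (0.85 ± 0.12, adjusted p = 0.000134). Socs2, a feedback inhibitor, had 623, 542 and 439 in STAT3-deficient cells, against 123, 222 and 193 in WT cells (1.16 ± 0.26, adjusted p = 0.0038). For these 3 genes no array of one genotype overlapped the other, and the direction held under all 3 scalings. Tyk2, a JAK of interferon and IL-12 family receptors, changed by 0.54 and came to -0.085 with median centring. Stat5b had 2 probe sets called in opposite directions (0.50 ± 0.10, adjusted p = 0.0013 and -0.52 ± 0.15, adjusted p = 0.0187), and the gene came to -0.26 with median centring. Jak1, used by IL-6 and gamma chain receptors, changed by 0.33 and came to -0.49 with median centring. A further Jak1 probe set, 1433804_at, was called lower, with 600.5, 479 and 449.7 in STAT3-deficient cells, against 1059.5, 1653 and 1587 in WT cells (-1.50 ± 0.23, adjusted p = 0.000229), so no direction can be given for Jak1 or Stat5b. The receptor chains of IL-6 and IL-27 did not move together, with 1 higher and 1 lower of 7 measured: Il27ra changed by 0.43 ± 0.14, adjusted p = 0.0299, or -0.20 with median centring, while Il6st, the shared chain gp130, changed by -0.17 ± 0.12, adjusted p = 0.296, which did not pass but did with median centring (-0.77, adjusted p = 0.00108). The 3 other Il6st probe sets were called in both directions, 1437303_at higher (1.31 ± 0.25, adjusted p = 0.00124), 1421239_at lower (-0.83 ± 0.27, adjusted p = 0.0295) and 1460295_s_at lower (-0.77 ± 0.23, adjusted p = 0.0214).

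TGF-beta and SMAD genes, a pathway that restrains T cell activation, had the highest share of calls among the signalling lists of more than 10 measured genes. Of 16 measured, 9 were higher and 1 lower (62.5% called), with a median of 0.35; with median centring none was higher and 5 were lower, with a median of -0.29 beside -0.40 over all genes. Ski, a repressor of SMAD signalling, had 2849, 2924 and 2569.6 in STAT3-deficient cells, against 1649, 1699 and 1981 in WT cells (0.79 ± 0.12, adjusted p = 0.000189). Smad7, the inhibitory SMAD, had 3838, 3859 and 4169 in STAT3-deficient cells, against 2645, 2437 and 2851 in WT cells (0.77 ± 0.09, adjusted p = 3.36e-05). Tgfb1, the ligand, had 1679, 1789 and 1903 in STAT3-deficient cells, against 1293, 1010.2 and 1194 in WT cells (0.70 ± 0.12, adjusted p = 0.000527). These 3 genes kept their sign under the scalings tried. Tgfbr2, the type II receptor, has no settled direction: it changed by 0.60, a second probe set was called lower (-1.01 ± 0.20, adjusted p = 0.002), and the gene came to -0.22 with median centring and -0.21 as the mean of its probe sets.

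Interferon-induced genes were partly higher without added cytokine. Of 54 measured antiviral interferon-stimulated genes 15 were higher and 4 lower, with a median of 0.19 that came to -0.23 with median centring. Over all genes 13.8% were higher and 12.9% lower. Ifit3, an RNA-binding antiviral protein, had 723, 842 and 838 in STAT3-deficient cells, against 425, 259.6 and 182 in WT cells (1.31 ± 0.23, adjusted p = 0.000738). Ddx58, the RNA sensor RIG-I, had 1665, 1626 and 1600.0 in STAT3-deficient cells, against 960.4, 751 and 849 in WT cells (0.99 ± 0.09, adjusted p = 3.71e-06), and Ifitm3, which blocks viral entry, changed by 1.11. Of 10 measured interferon-inducible GTPases 6 were higher and none lower, with a median of 0.41 that came to -0.21 with median centring. Irgm1 had 1108, 1448 and 742 in STAT3-deficient cells, against 379, 392 and 469 in WT cells (1.26 ± 0.17, adjusted p = 0.000132), Iigp1 changed by 0.94 and Gbp6 by 0.83. In these genes the groups did not overlap. The genotype differences with IL-6 were larger, 2.69 for Irgm1, 2.57 for Iigp1 and 3.00 for Gbp6, and the interaction passed for each.

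Genes of oxidative phosphorylation were lower or did not pass. Of 61 measured subunits of the respiratory chain and ATP synthase none was higher and 30 were lower (49.2%, against 12.9% lower over all genes), with a median of -0.30. The median was -0.49 on the deposited scale, where 51 were lower, and -1.03 with median centring, where all 61 were lower. Ndufa3, a subunit of complex I, had 5883, 7175 and 6838 in STAT3-deficient cells, against 16147, 14625 and 12804 in WT cells (-0.89 ± 0.18, adjusted p = 0.00194). Sdhd, an anchor subunit of complex II, had 1547, 978 and 1040.2 in STAT3-deficient cells, against 2987, 1767 and 2272 in WT cells (-0.89 ± 0.23, adjusted p = 0.00865). Ndufs5 and Ndufa8, both of complex I, changed by -0.86 and -0.67. Signals in STAT3-deficient arrays lay below those of WT arrays for each of these 4 genes. The median was also below 0 in the genotype comparisons with IL-6 (-0.33) and with IL-27 (-0.21), which use other arrays but share the difference in hybridization controls. With the B cell and myeloid markers as covariate the median was -0.42, with 3 calls, and Ndufs5 turned above 0. That covariate follows genotype closely (r = 0.957). With the hybridization controls as covariate Ndufa3 came to 1.26, Ndufs5 to 2.52 and Ndufa8 to 1.21, while Sdhd stayed below 0. Values under either covariate carry little information, so they do not settle the direction.

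**Figure D4:**
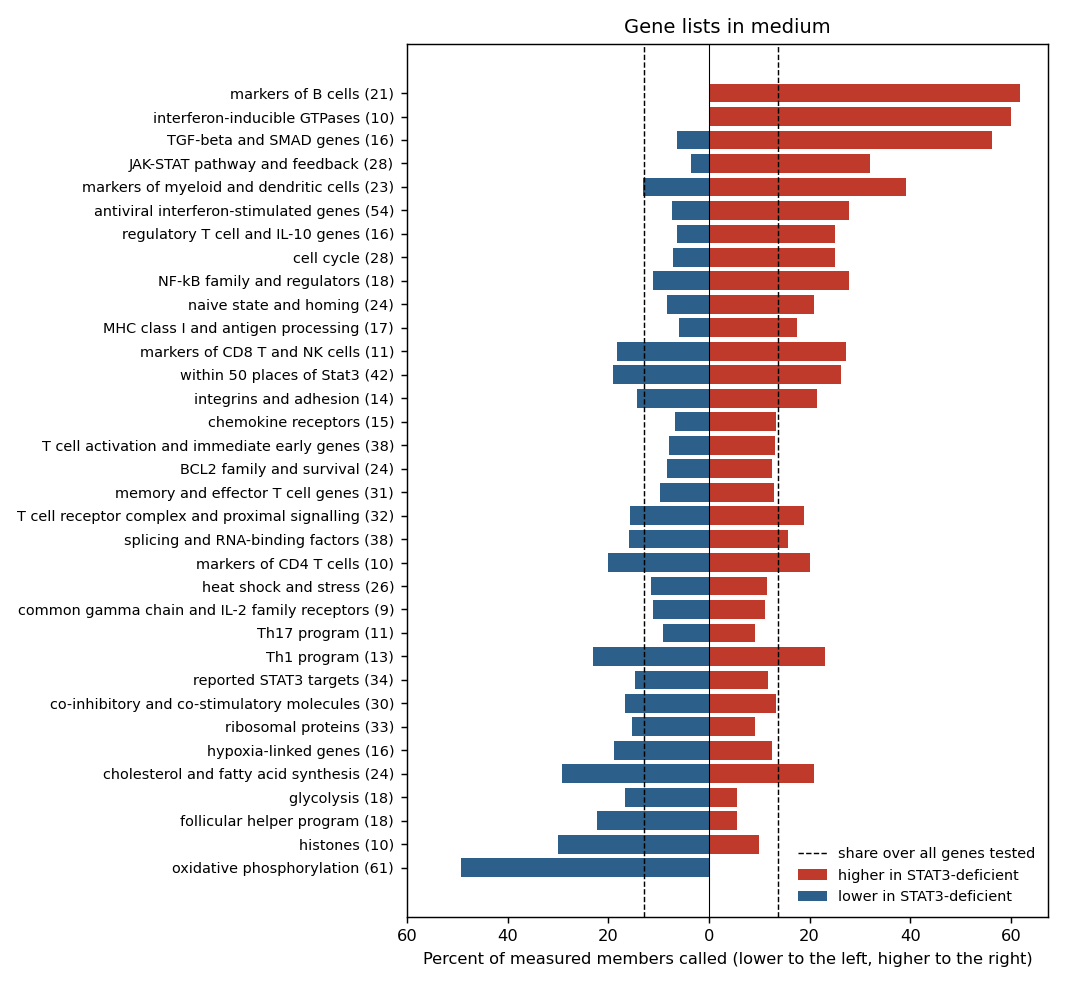
Percent of measured members called higher (right) and lower (left) in STAT3-deficient cells in medium for gene lists of at least 9 measured genes, number measured in brackets, dashed lines marking all genes tested (13.8% and 12.9%). Members near the floor in WT arrays could pass the filter through STAT3-deficient arrays alone. B cell markers reach 61.9% higher and oxidative phosphorylation genes 49.2% lower; with median centring the medians of the interferon-inducible GTPase, TGF-beta, JAK-STAT and antiviral lists turn below 0.

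Counts for other metabolic lists stand beside 13.8% higher and 12.9% lower over all genes. In cholesterol and fatty acid synthesis 5 of 24 measured genes were higher and 7 lower. Fdps, the synthase of farnesyl diphosphate, had 638, 891 and 841 in STAT3-deficient cells, against 1893, 1620.1 and 1375 in WT cells (-1.02 ± 0.15, adjusted p = 0.000196), and Mvd, an enzyme of the same branch, changed by -0.81. The desaturases Scd1 and Scd2 were higher, by 0.87 and 0.91. Of 18 measured glycolysis genes 1 was higher and 3 were lower: Hk1, which phosphorylates glucose, changed by 0.73 ± 0.13, adjusted p = 0.000834, with a second probe set called lower (-0.68 ± 0.22, adjusted p = 0.0323), while Pgk1 (-0.49), Ldha (-0.39) and Aldoc (-0.78) fell. Of 16 measured hypoxia-linked genes 2 were higher, among them Arnt, the HIF partner (1.16), and 3 lower, with Egln3 (-0.78), P4ha1 (-0.59) and Higd1a (-0.41). Deposited signals of Egln3 overlapped, with 130, 74.7 and 141 in STAT3-deficient cells, against 160, 125 and 151 in WT cells. Those of Aldoc did too, with 88.3, 136 and 110.5 in STAT3-deficient cells, against 133.5, 122 and 175 in WT cells.

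Counts for T cell receptor and naive state genes stand beside 13.8% higher and 12.9% lower over all genes. Of 32 measured genes of T cell receptor signalling, 6 were higher and 5 lower, with a median of -0.0048. Plcg1, the phospholipase of the receptor pathway, had 4064, 3766 and 3872 in STAT3-deficient cells, against 2589, 1994 and 3126 in WT cells (0.82 ± 0.14, adjusted p = 0.000612), and Txk, a TEC family kinase, had 2545, 2754 and 3042 in STAT3-deficient cells, against 5271, 4986 and 4877 in WT cells (-0.66 ± 0.08, adjusted p = 3.36e-05). Grap2, the adaptor GADS, was lower by 0.87 on the log2 scale. Of 24 measured genes of the naive state and homing 5 were higher and 2 lower. Igfbp4, a binding protein of insulin-like growth factors, rose (0.80 ± 0.11, adjusted p = 9.67e-05), Treml2 fell (-0.87), and Foxo1, a factor that holds the naive state, changed by 0.36, or -0.41 with median centring. Ccr7, the lymph node homing receptor, had 16541, 18046.5 and 18432 in STAT3-deficient cells, against 21492.5, 24386.5 and 20616.5 in WT cells and changed by -0.044 ± 0.07, adjusted p = 0.655, which did not pass. Its signals did not overlap, and it was called lower on the deposited scale (-0.32, adjusted p = 0.00648) and with median centring (-0.86, adjusted p = 0.000133). Il7r, the IL-7 receptor chain, changed by 0.12 ± 0.09, adjusted p = 0.368, which did not pass and came to -0.098 on the deposited scale and -0.64 with median centring.

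Of activation and effector genes 21.1% and 22.6% were called, near the 26.6% of all genes tested. Of 38 measured activation and immediate early genes 5 were higher and 3 lower. Btg2, an antiproliferative early gene, had 4458, 4257.5 and 5029 in STAT3-deficient cells, against 9401.5, 11235 and 10745 in WT cells (-0.96 ± 0.12, adjusted p = 5.04e-05), and Klf6, a zinc finger factor, fell (-0.80 ± 0.10, adjusted p = 6.14e-05). Cd83, a surface protein of activated lymphocytes and dendritic cells, had 586, 892 and 385 in STAT3-deficient cells, against 131, 72.1 and 174.5 in WT cells (1.76 ± 0.33, adjusted p = 0.00104), and Tnfrsf9, the costimulatory receptor 4-1BB, rose (1.05). For Cd83 and Tnfrsf9 the third STAT3-deficient array was again the lowest. Of 31 measured memory and effector genes 4 were higher and 3 lower, with Plac8 (2.27), Ccl5 (1.36) and Eomes (1.10) above and Fasl (-0.89) below. Plac8, which is also expressed by myeloid cells, had 714, 980.1 and 542 in STAT3-deficient cells, against 85.5, 95 and 119 in WT cells.

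The lists of helper programs were called at 16.7% (Th2), 18.2% (Th17), 27.8% (follicular helper) and 46.2% (Th1), beside 26.6% of all genes, and the differences were not tested. Of 18 measured follicular helper genes 1 was higher, Tox2 (0.82), and 4 were lower, with Icos, Slamf6 (-0.69) and Sh2d1a (-0.62), the adaptor SAP. In the Th17 program 1 was higher and 1 lower of 11, in the Th1 program 3 and 3 of 13, and in the Th2 program 0 and 1 of 6. Ifngr2, a chain of the interferon-gamma receptor, had 1091, 1354 and 1438.5 in STAT3-deficient cells, against 2735, 3202 and 3177 in WT cells (-1.13 ± 0.13, adjusted p = 1.97e-05), Ccl4, a chemokine, rose (0.97), and Gata3, the factor of Th2 cells, had 464, 491 and 759 in STAT3-deficient cells, against 721, 808 and 869 in WT cells (-0.59 ± 0.19, adjusted p = 0.0298), with overlapping groups. Of 16 measured regulatory T cell and IL-10 genes 4 were higher and 1 lower, Nt5e, the ectonucleotidase CD73 (-0.77). Of 30 measured co-inhibitory and co-stimulatory molecules 4 were higher and 5 lower, with Cd244a (0.94) above and Cd48 (-0.80), its ligand, and Tnfrsf14 (-1.45) below.

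The remaining lists held a few named changes each. Counts in this and the next paragraph stand beside 13.8% higher and 12.9% lower over all genes, and no list was tested against these shares. The class I antigen processing list gave 3 higher and 1 lower of 17 measured: the chaperones Calr (0.87) and Canx (0.87) rose, Pdia3, a disulfide isomerase of the same loading complex, changed by -0.62 with a second probe set called higher (0.55 ± 0.18, adjusted p = 0.0324), and Nlrc5, the class I activator, changed by 0.59, or -0.11 with median centring. Of 18 NF-kB genes 5 were higher and 2 lower, with Nfkb2 (0.55) and Tnip1 (0.50) above, both of which came below 0 with median centring, and Nfkbib below (-0.47). Of 28 cell cycle genes 7 were higher and 2 lower, and their median of 0.26 came to -0.26 with median centring. Mcm2, part of the replicative helicase, had 901, 1634 and 1507 in STAT3-deficient cells, against 278.5, 614 and 433 in WT cells (1.52 ± 0.37, adjusted p = 0.00734). Its second probe set, 1448777_at, was not called (limma, -0.10 ± 0.16, adjusted p = 0.664). That probe set had 794, 870 and 631 in STAT3-deficient cells, against 843, 739 and 821 in WT cells. Of 24 BCL2 family and survival genes 3 were higher and 2 lower, with Xiap (0.72, or -0.027 with median centring, and a second probe set called lower at -0.57 ± 0.19, adjusted p = 0.0368) above and Bid (-0.55) and Fadd (-0.44) below, while Bcl2 had a change of -0.054 ± 0.16, adjusted p = 0.83 and did not pass, though it did with median centring (-0.63, adjusted p = 0.00896).

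Of 9 gamma chain and IL-2 family receptor genes 1 was higher and 1 lower, Crlf2, the TSLP receptor chain, with 787, 1199.6 and 1235 in STAT3-deficient cells, against 2653, 2432 and 2561.5 in WT cells (-1.20 ± 0.15, adjusted p = 5.04e-05). Of 15 chemokine receptors 2 were higher and 1 lower, with Ackr3 (0.92) above and Gpr183, which guides cells to oxysterols, below (-0.64). Of 14 integrin and adhesion genes 3 were higher and 2 lower. Icam1, a ligand of LFA-1, had 1814, 1543 and 1279 in STAT3-deficient cells, against 809, 838 and 849 in WT cells (0.93 ± 0.14, adjusted p = 0.000189), while Icam2, its relative, had 2447.5, 2337.5 and 2382 in STAT3-deficient cells, against 4152, 4011 and 3887 in WT cells (-0.58 ± 0.14, adjusted p = 0.00602). Each adhesion ligand was read by 1 kept probe set, and these moved apart with no overlap between genotypes. Ribosomal proteins gave 3 higher and 5 lower of 33, with Rps6 at -0.80, splicing and RNA-binding factors 6 and 6 of 38, with Hnrnpl at 0.60 (or -0.14 with median centring) and Srrm2 at -0.59 with another probe set called higher (0.46 ± 0.13, adjusted p = 0.0128). Heat shock and stress genes gave 3 and 3 of 26, with Ddit3, a stress-induced factor, at -0.53, and histones 1 and 3 of 10, with H2aw at -0.59. The single sex-specific gene measured, Xist, did not pass (0.12 ± 0.18, limma adjusted p = 0.66). It was strong on every array, with 12409, 24140 and 19672.5 in STAT3-deficient cells, against 19077, 21513 and 18707 in WT cells.

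Genes near Stat3 were described apart, since a targeted locus can carry linked sequence of the strain it was made in. Of 42 measured genes within 50 places of Stat3 in the gene order, Stat3 not counted, 11 were higher and 8 lower (45.2% called), against 155 higher and 116 lower of the 930 others on chromosome 11 (29.1%). The difference of these shares was not tested. Krt42, a keratin gene, had 3559, 2993 and 1922 in STAT3-deficient cells, against 938, 718 and 1171 in WT cells (1.66 ± 0.28, adjusted p = 0.000605). Krt32, another keratin gene, changed by 0.90, and Coasy, an enzyme of coenzyme A synthesis, by -0.88. Vat1, a membrane protein of vesicles, changed by 1.16 with overlapping groups, and Psme3, a proteasome activator, by -0.76, with a second probe set called higher (1.11 ± 0.13, adjusted p = 1.99e-05).

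The same genotype difference was measured on the 12 arrays with cytokine, which share no array with those in medium. With IL-6, 2826 genes were called (23.6%), 12.8% higher and 10.9% lower, and with IL-27 1945 (16.2%), 9.62% higher and 6.62% lower. Of the 1647 genes higher in medium, 783 (47.5%) were also higher with IL-6 and 720 (43.7%) with IL-27, and of the 1543 lower ones 748 (48.5%) and 580 (37.6%) were also lower. The number called in the same direction in all 3 conditions was 1008, 554 higher and 454 lower, while 37 had the opposite call in at least one. The change had the same sign as in medium for 2972 of the 3190 genes with IL-6 and 3046 with IL-27. Since the hybridization controls split every condition by genotype, this recurrence does not separate genotype from array handling.

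Genes with the largest changes in all 3 conditions were largely those named above. S100a9 changed by 4.91 with IL-6 and 5.16 with IL-27, and Igha by 4.46 with IL-6 and 4.78 with IL-27. Cpm changed by -2.14 with IL-6 and -2.13 with IL-27. Further genes lower throughout were AY036118 (-1.56 in medium), Bod1l (-1.62), 1810014B01Rik (-1.38), Lncppara (-1.23) and Zfp775 (-1.01). In medium, Zfp775 lost its call under 13 of 19 alternative settings and Lncppara under 8 of 20. Only 1 of 3 probe sets was called for each of Bod1l and 1810014B01Rik. A test of the difference itself, the interaction, passed for 369 genes with IL-6 (3.08%) and for 2 with IL-27 (0.0167%), 137 and 2 of them among those called in medium. Among the 30 genes with the largest changes in medium it passed for Xaf1 alone, with both cytokines.

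**Figure D5:**
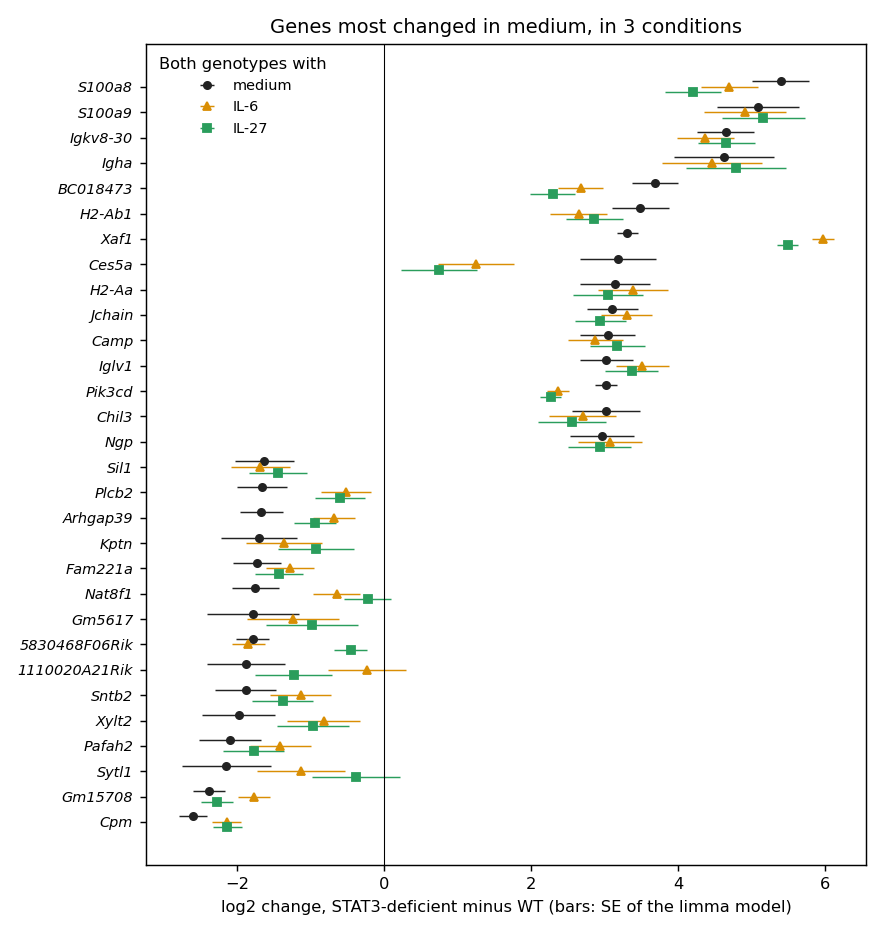
Log2 change (STAT3-deficient minus WT, horizontal axis) of the 30 genes most changed in medium, given in medium (circles), with IL-6 (triangles) and with IL-27 (squares), bars giving the SE of the limma model. Igha lies at 4.62, 4.46 and 4.78 and Cpm at -2.60, -2.14 and -2.13, while Xaf1 lies at 3.31, 5.97 and 5.49.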

How the data were processed

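The values are probe set intensity on a linear scale, deposited by the authors and made with GCOS per the submitters' processing notes; its version, algorithm and the genome build are not stated there. The 2% trimmed mean was 500.0 on every array. Of 45101 probe sets, 64 controls were left out of the tests; 34945 had a single symbol (18193 genes), 932 had more than one and 9160 lacked one in the platform annotation; genes withheld from this work are not reported here.

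Signals were taken as log2(signal + 32) and quantile-normalised with limma 3.58.1 (R 4.3.3). Probe sets above the median of their own array on at least 3 arrays were kept (26860), and the probe set of highest mean stood for its gene. One mean per group was fitted to all 18 arrays (12 residual and 6.25 prior degrees of freedom, variance trend), with two-sided tests, Benjamini-Hochberg adjustment over all 11971 genes and a threshold of 0.05. Precision is limited by the number of arrays (median SE in medium 0.185). Stat3 and other single probe sets come from the same model fitted to probe sets. On simulated data 32.8%, 70.3% and 97.4% of 1.5-, 2- and 4-fold changes were called, with 5.24% of calls false. There 200 genes were changed on independent noise at the fitted variances, without the array differences between genotypes. The share of false calls in the simulation is therefore not the error rate of the calls reported here.

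Named genes are Stat3, the 15 largest changes per direction with arrays that do not overlap, up to 4 called members of each list, 6 neighbours of Stat3, up to 10 genes per direction called in all conditions, and a set of cytokine and T cell genes chosen by name. Csf1r, Ighm, Bcl6, Ctss, Xist and 3 myeloid markers were named beyond that rule, after their values were seen. So were Derl3, Xbp1, Sdc1, Prdm1, Irf4, Ighg3 and Mzb1. For genes named beyond the rule, values under other settings are not given. Members and lists were chosen with earlier results of these data known. Alternatives were 2 other scalings, 3 constants, 2 filters, the mean of probe sets, other variance models, only the 6 arrays compared, a 2-fold minimum, a replicate block, covariates and leaving out each array. Equal sample numbers did not pair arrays (correlations of deviations -0.094, -0.012 and -0.170).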

Additional observations from a re-analysis of the deposited data

Results flagged for a closer look

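A test of the interaction passed for 27 results among the genes named, in which the genotype difference with a cytokine departed from that in medium (limma, adjusted p from 1.26e-09 to 0.0392 over all genes). The departure is given as the difference with cytokine minus the difference in medium, on the log2 scale. With IL-27 it passed for Xaf1 among the named genes, at 2.18 (adjusted p = 3.83e-05), beside 5.49 with IL-27 and 3.31 in medium.

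With IL-6, departures above 0 were Xaf1 2.66, Ifit3 1.54, Irgm1 1.43, Iigp1 1.63, Gbp6 2.17 and Gbp8 1.74. Also above 0 were Nlrc5 0.83, Grap2 1.07, Ccl5 1.57, Klf6 0.64, Ifngr2 0.81 and Gata3 1.39. The others above 0 were Jak1 0.62, Klrd1 1.19, Il7r 0.55, Bcl2 0.94 and Cd274 2.43. Departures below 0 were Stat3 -0.87, Txk -0.61, Igfbp4 -2.85, Gpr183 -0.77 and Icam1 -0.74. The rest below 0 were Bcl3 -2.76, Ldha -0.62, Socs3 -3.41 and Il6st -0.90. The largest below 0 belonged to Socs3, which differed by -3.76 between genotypes with IL-6 and by -0.35 in medium. Bcl3 differed by -2.24 with IL-6 and 0.52 in medium, and Igfbp4 by -2.05 and 0.80, so that both turned sign. Cd274 differed by 2.75 with IL-6 and 0.32 in medium. Their causes were not tested.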

How the results depend on the processing

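The count of calls in medium (3190) stayed within 1.5 times under the other constants and filters, the variance models, the deposited scaling (4633), the mean of all probe sets (2812, 44.2% higher) and the 6 arrays alone (2779). It was 5910 with median centring and 489 with a 2-fold minimum. Leaving out one array gave 2028 to 2943 in medium, 1984 to 2970 with IL-6 and 1201 to 1658 with IL-27; in medium it moved past 1.5 times without WT array 1 or 2 or STAT3-deficient array 1, and with IL-27 without WT array 1 (1240) or 2 (1201). With IL-6 the 2-fold minimum left 519 of 2826 calls, and with IL-27 280 of 1945, where the 6 arrays alone gave 1119. A replicate block by sample number gave 3581 calls in medium, 3175 with IL-6 and 2286 with IL-27. The numbers do not pair the arrays, and the block changed no call or direction among the named genes.

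The sum of B cell and myeloid markers followed genotype closely (r = 0.957), so as a covariate it separates poorly from genotype. It left 395 calls in medium, 400 with IL-6 and 201 with IL-27. Of the 160 named genes, 117 kept their sign but were no longer called, and the sign of a further 14 turned. Among those 14, H2-Aa, Scd1 and Tyrobp are themselves part of the sum, so their values are partly fixed by it. Igha came to -0.34, H2-Aa to -0.17, Fam221a to 0.25, Nlrc5 to -0.062, Cd83 to -0.057, Icos to 0.17, Sh2d1a to 0.065, Gata3 to 0.24 and Ndufs5 to 0.33. Scd1 came to -0.26, H1f2 to 0.058, Tyrobp to -0.54, Cd4 to -0.26 and Cd274 to -0.098.

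With the hybridization controls as covariate limma called 0 genes in each of the 3 comparisons, with 1351, 1603 and 1649 at an unadjusted p under 0.05 in medium, with IL-6 and with IL-27. The covariate is almost the genotype itself (r = -0.998), and the median SE became 1.64 in place of 0.185, so its values carry very little information on either. The sign of 105 of the 160 named genes turned. S100a8 came to -1.06, S100a9 to -0.57, Igkv8-30 to -0.88, Igha to -6.00, H2-Ab1 to -2.35, H2-Aa to -1.63, Jchain to -2.18, Camp to -3.58 and Iglv1 to -2.75. Chil3 came to -1.25, Ngp to -2.95, Cpm to 2.29, Gm15708 to 0.64, Sytl1 to 4.18, Pafah2 to 0.81, Xylt2 to 2.78, Sntb2 to 3.29 and 5830468F06Rik to 0.58. Gm5617 came to 8.23, Nat8f1 to 3.66, Fam221a to 4.86, Kptn to 9.43, Arhgap39 to 1.13, Plcb2 to 3.21, Sil1 to 1.24, Bcl2l1 to -1.51 and Il17a to -2.71. Il6ra came to 0.14, Socs2 to -2.06, Jak2 to -0.27, Stat5a to -0.091, Tyk2 to -1.08, Irgm1 to -2.86, Iigp1 to -0.78, Gbp8 to -0.69 and Calr to -0.36. Canx came to -0.90, Pdia3 to 0.22, Grap2 to 1.63, Plcg1 to -1.09, Txk to 0.38, Treml2 to 1.94, Plac8 to -0.89, Ccl5 to -2.02 and Fasl to 0.82. Cd83 came to -4.12, Tnfrsf9 to -0.21, Btg2 to 0.74, Klf6 to 0.56, Cd48 to 0.36, Nt5e to 1.29, Slamf6 to 0.81, Icos to 1.91 and Sh2d1a to 0.39. Ifngr2 came to 1.18, Ccl4 to -3.66, Gata3 to 2.98, Crlf2 to 1.13, S1pr4 to -0.68, Icam1 to -0.76, Icam2 to 0.97, Itgav to -2.59 and Cd47 to 1.42. Xiap came to -1.17, Bid to 0.51, Fadd to 1.95, Bcl3 to -0.67, Tnip1 to -0.092, Nfkbib to 2.87, Ski to -1.34, Tgfbr2 to -0.32 and Hk1 to -1.21. Ndufa3 came to 1.26, Ndufs5 to 2.52, Ndufa8 to 1.21, Fdps to 1.33, Scd1 to -2.84, Mvd to 2.97, Ccne1 to -2.15, Rpl14 to 0.44 and Rps29 to -0.15. Rpl8 came to 0.065, Hsp90aa1 to -1.44, Hsp90b1 to -4.18, Hspe1 to 1.31, Arnt to -6.64, Egln3 to 0.98, H1f2 to 1.48, H2az1 to 0.74 and H2-Eb1 to -4.23. Fcgr2b came to -5.27, Klrk1 to -0.83, Tyrobp to -0.14, Cd2 to 0.91, Cd3d to 0.15, Stat5b to -0.17, Il6st to 1.05, Ccr7 to 0.66 and Il7r to -0.47. Krt42 came to -7.05, Vat1 to -8.42, Krt32 to -0.30, Coasy to 3.69, Psme3 to 3.82 and AY036118 to 0.072.

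With median centring these named genes turned. Tyk2 came to -0.085, Il27ra to -0.20, Gbp8 to -0.16, Nlrc5 to -0.11, Foxo1 to -0.41, Jak1 to -0.49, S1pr4 to -0.50, Itgav to -0.0197 and Xiap to -0.027. Nfkb2 came to -0.097, Tnip1 to -0.26, Tgfbr2 to -0.22, Rps29 to -0.48, Hnrnpl to -0.14, Hsp90aa1 to -0.11, Hsp90b1 to -0.11, H3f3b to -0.15 and Lat to -0.47. Stat5b came to -0.26, Cd4 to -0.48 and Il7r to -0.64. With the mean of all probe sets these did. Pik3cd came to -0.084, Jak1 to -0.24, Cd47 to 0.093, Tgfbr2 to -0.21, Rbm25 to 0.073, Hsp90aa1 to -0.27, Hsp90b1 to -0.15, Stat5b to -0.0074 and Cd4 to -0.38. Il7r came to -0.12 and Psme3 to 0.17. On the deposited scale Il7r came to -0.098. Calls were also lost without a turn of sign, for Zfp775 under 13 of 19 alternatives and for Gm5617 under 10 of 19. The same held under 11 of 20 for Egln3 and for Ccna2, and under 10 of 20 for Foxo1. Leaving out one array turned 2 named genes that had not passed the test. Bcl2 came to 0.12 without STAT3-deficient array 3 and 0.015 without WT array 2, where Ccr7 came to 0.0098; over all arrays left out Ccr7 ranged over -0.093 to 0.0098 and Bcl2 over -0.16 to 0.12.

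For Stat3, 1460700_at and 1426587_a_at kept direction and call under the scalings, constants and filter tried, over -1.20 to -1.02 and -1.02 to -0.85 with one array left out. As a gene, Stat3 stayed below 0 under all 20 alternative settings, over -1.72 to -0.28. It lost its call under 2 of them, the hybridization covariate included. Probe set 1424272_at was not called with median centring (0.53), without a filter (0.80, adjusted p = 0.0547) or without any one array other than STAT3-deficient array 2 (0.70 to 0.99 over all arrays left out). Probe set 1459961_a_at passed on the deposited scale (0.55, adjusted p = 0.0356) and ranged over -0.14 to 0.29 with one array left out, turning below 0 without STAT3-deficient array 2. The causes of these shifts were not tested.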
